A study of Rattus norvegicus with 20 samples.

Results

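The interior of rat chromosome 3 between chr3:60000001 and chr3:145000000 (build rn4) was examined because carcinomas 8, 11 and 16 had low input DNA signal over most of it. Its members were all probes of the array, control spots left out, whose position starts in that interval, which gave 2752 of 93024 probes. They formed 397 of the 13556 regions tested, a region being a run of at least 3 probes that start at most 500 bases apart. The segment covers 85 windows of 1 Mb, of which 67 held a probe and 61 held the 5 probes needed for a window value. The interval was chosen from the input signal, so the input values below are a description and carry no test.

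CpG islands are stretches dense in CpG dinucleotides that often lie at gene starts and are mostly unmethylated in normal tissue. A methyl-CpG-binding domain protein pulls down DNA fragments with methylated CpGs, so the ratio of enriched to input DNA follows methylation across islands. The input DNA is not enriched, and its signal follows the amount of each stretch of genome in the tissue. A tumour that has lost one copy of a chromosome segment gives less input from it, and less enriched DNA from it too. In bulk tissue, a loss in some of the cells and a deeper loss in fewer cells cannot be told apart.

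Each of the 20 two-colour arrays carried Cy5-labelled DNA isolated by its methyl-CpG-binding and Cy3-labelled input DNA of the same tissue. The tissues were 16 mammary carcinomas and 4 normal glands from female F1 hybrids between the Sprague-Dawley and Copenhagen strains. The carcinomas are labelled as radiation-induced, and the protocol gives whole-body caesium gamma rays at 4 Gy and 0.5 Gy per min at 7 weeks of age, with other rats left untreated. Whether the normal glands came from irradiated rats, the age at sampling and the share of tumour cells are not given in the sources used here. Animals are not named in the labels, and the p-values therefore cover only the spread between these samples. The arrays measure DNA, so the labelled tissue cannot be checked against expression markers.

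The arrays sat on 10 slides, none with both groups, and were scanned on 3 days. Median raw signals ran from 73.0 to 136 for input and from 62.0 to 128 for enriched DNA. Carcinomas 8, 11 and 16 had median raw input of 114, 90.0 and 121. They lay on 3 different slides, each shared with a carcinoma without a long low run (carcinomas 9, 15 and 14). Carcinoma 8 was scanned on day 3 and carcinomas 11 and 16 on day 2. For carcinomas 7 and 8 the sample's description and its scanner file carry different codes, which leaves the identity of both tumours uncertain.

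Input was taken per probe as log2 of the processed Cy3 signal with the array's median removed, minus the mean of the 4 normal glands, and averaged over windows of 1 Mb. A normal gland was set against the mean of the other 3, in both channels. A window was low when its mean was under -0.25. In carcinoma 8 the low run spanned 81 Mb, from 62000001 to 143000000, and 57 of its 57 windows were low, with values from -0.60 to -0.32 and a mean of -0.47. In carcinoma 11 the run spanned 81 Mb, from 59000001 to 140000000, with 56 of 58 windows low, values from -1.02 to -0.17 and a mean of -0.55. In carcinoma 16 the run spanned 80 Mb, from 55000001 to 135000000, with 58 of 58 windows low, values from -0.49 to -0.26 and a mean of -0.36. The 3 runs thus had nearly the same length but were offset along the chromosome, with the run of carcinoma 16 farthest to the left and that of carcinoma 8 farthest to the right. The normal glands had 0 low runs.

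**Figure D1:**
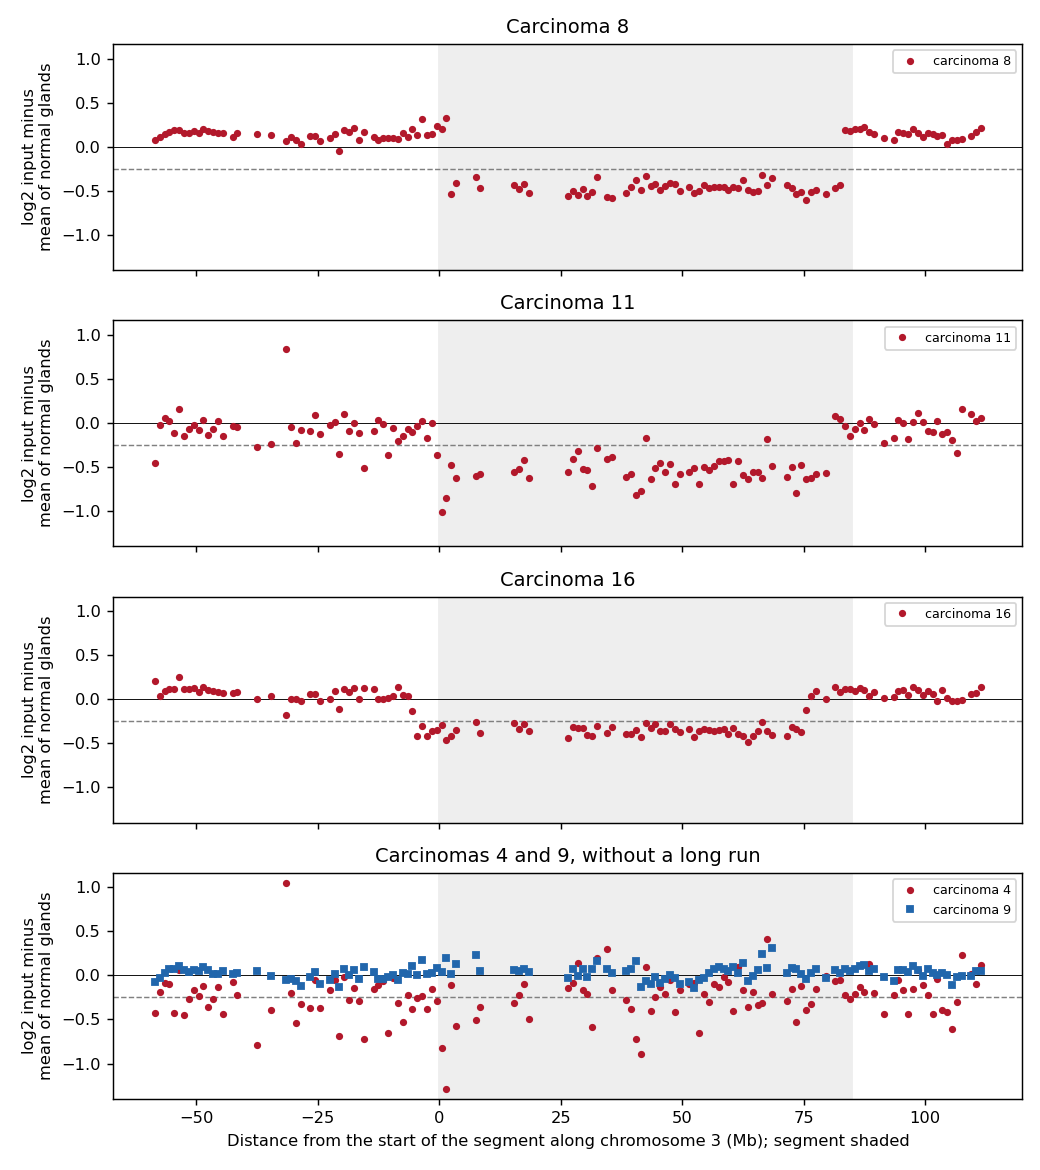
Input deviation from the mean of the normal glands (log2) in 1-Mb windows of chromosome 3 against distance from the segment start in Mb, for carcinomas 8, 11 and 16 and for carcinomas 4 and 9 as examples without a long run. The segment is shaded, the dashed line marks -0.25, and each of the first 3 panels drops over about 80 Mb, while carcinoma 4 scatters below the line both inside and outside the segment.

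The edges were also placed between single probes, by the best single interval of at least 50 probes on chromosome 3 that differs from the rest of it. In carcinoma 8 the left edge fell between probes at 61555587 and 62024867 and the right edge between 142730781 and 142976976. That interval lay 0.63 below the rest of the chromosome (-0.63, log2) and accounted for 65.5% of the variance of its probes. In carcinoma 16 the left edge fell between 54396665 and 54754832 and the right edge between 135650810 and 135650866, with a step of -0.44 and 44.2% of the variance. In carcinoma 11 the step was -0.50 with 17.9% of the variance, and after the pattern shared with the other carcinomas was removed it was -0.49 with 54.7%, with edges at 59096399 to 59345987 and 139974842 to 140403214. The 3 intervals measured 80.7, 80.9 and 80.6 Mb for carcinomas 8, 16 and 11, and no pair of them shared an edge. All 3 cover chr3:62024867-135650810, a common interval of 73.6 Mb with 2236 probes and 317 regions, and together they reach from 54754832 to 142730781.

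The outer limits of the interval as chosen did not coincide with any of these edges. The last probe before it, at 59964132, read -0.02 in carcinoma 8, -0.26 in carcinoma 11 and -0.39 in carcinoma 16, and the first probe inside it, at 60171761, read 0.35, -2.75 and -0.63. The last probe inside it, at 144913000, read 0.20, -0.17 and 0.07 in the same order, and the first probe after it, at 145022941, read 0.22, 0.29 and 0.06. Single probes scatter widely: the 4 normal glands read from -0.47 to 0.34 at the probe at 60171761.

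The same window rule also gave shorter low runs on chromosome 3 in 7 of the other 13 carcinomas. The longest spanned 27 Mb in carcinoma 4 and 24 Mb in each of carcinomas 1 and 2, and the others were carcinoma 5 with 16 Mb, carcinoma 15 with 10 Mb, carcinoma 6 with 8 Mb and carcinoma 3 with 4 Mb. These windows were not particular to the segment: carcinoma 4 had 25 low windows among the 61 inside and 31 among the 72 outside it, and carcinoma 1 had 20 and 29. The 7 arrays had median raw input of 73.0 to 100, below the dimmest normal gland at 104. Carcinomas 10 and 12, at 89.5 and 99.0, were as dim and had no low run. The part of array brightness in these runs was not tested. With the median of the probes in place of their mean, the longest run among these 13 carcinomas was 4 Mb, and after removal of the pattern they share it was 0, while the runs of carcinomas 8, 11 and 16 were 81, 80 and 80 Mb. That removal takes out, by its construction, any run that the other carcinomas have in common.

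Set against chromosome 3 outside all 3 runs (4104 probes), the common interval read -0.62 in carcinoma 8, -0.49 in carcinoma 11 and -0.43 in carcinoma 16. On the unlogged scale these correspond to 65.1%, 71.3% and 74.0% of the level outside. The part of chromosome 3 outside the runs itself read 0.15, -0.04 and 0.09 in these 3 carcinomas, above their other autosomes at 0.04, -0.10 and 0.02. Such an excess was not confined to them: carcinoma 3 read 0.05 against -0.14, while carcinoma 14 went the other way at -0.11 against 0.01. The common interval minus chromosome 3 outside the runs was 0.01, -0.01, -0.01 and 0.02 in normal glands 1 to 4. In the other 13 carcinomas it ran from -0.04 through a median of 0.00 to 0.04. The 3 carcinomas lay apart from all other arrays, which did not separate from the normal glands by this measure. The low level was even along the interval: over 44 windows of at least 10 probes the SD, with the shared pattern removed, was 0.06 in carcinoma 8, 0.05 in carcinoma 11 and 0.05 in carcinoma 16, against 0.04, 0.05 and 0.06 over 62 windows outside the runs.

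The enriched channel is a separate reading that the choice of the segment did not use. With the shared pattern removed, its best single interval spanned chr3:62437901-134554938 for carcinoma 8, chr3:59346045-137654749 for carcinoma 11 and chr3:55818645-134554709 for carcinoma 16. The steps were -0.52, -0.47 and -0.47, with 6.40%, 20.9% and 12.9% of the variance. Relative to the pattern of the other carcinomas, the enriched DNA was thus lower over much of the same intervals as the input. The other carcinomas read higher there than on the rest of the chromosome, so the removal deepens these steps. The same search gave shorter intervals above the rest in carcinomas 12 and 6, with 4.02% and 3.72% of the variance. Both channels come from the same tissue and the same array, so they are not separate samples.

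Without that removal, the enriched signal of the common interval minus that of chromosome 3 outside the runs read -0.22, 0.11, 0.04 and 0.07 in normal glands 1 to 4. It read -0.27 in carcinoma 8, -0.17 in carcinoma 11 and -0.22 in carcinoma 16, and from 0.14 through 0.27 to 0.36 in the other 13. Normal gland 1 lay with the 3 low carcinomas here, and it was also the array with the lowest median raw enriched signal, 62.0. Carcinoma 1, nearly as dim at 63.0, read 0.19. The part of array brightness was not tested. All 13 other carcinomas lay above all 4 normal glands.

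**Figure D2:**
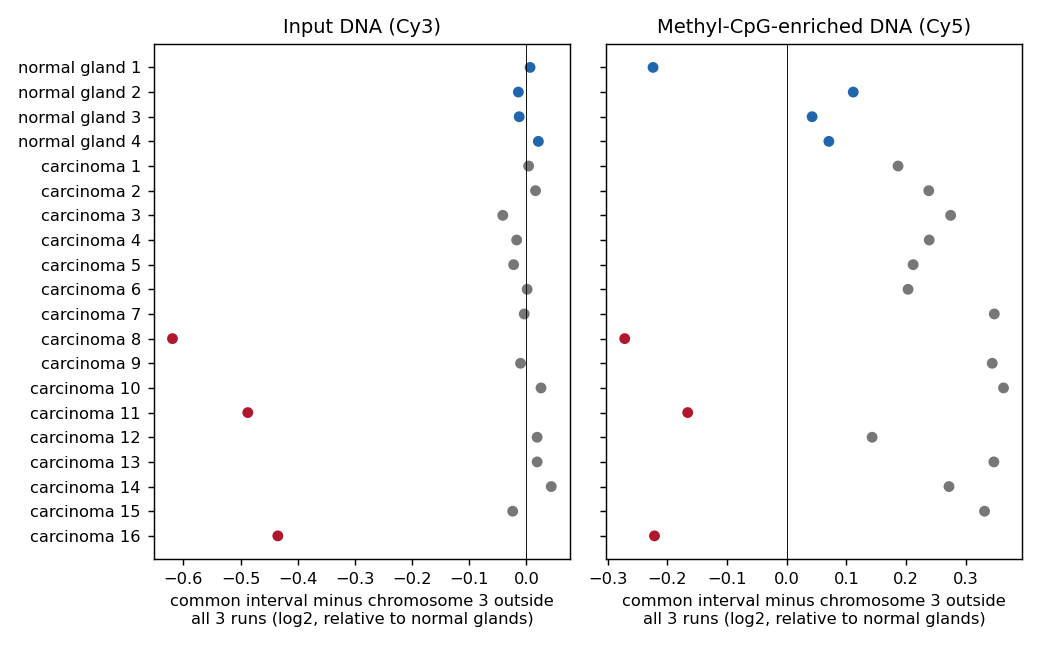
Difference between the common interval and chromosome 3 outside all 3 runs on each of the 20 arrays, as log2 relative to the mean of the normal glands, for input (left) and enriched DNA (right). A normal gland is set against the mean of the other normal glands. Blue points are normal glands, red points carcinomas 8, 11 and 16, and grey points the other 13 carcinomas; in input only the red points leave the range from -0.04 to 0.04.

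Over the whole segment, enriched signal minus that of the other autosomes averaged 0.00 ± 0.09 over the normal glands (SD, n = 4) and 0.13 ± 0.13 over the carcinomas (SD, n = 16). The difference of 0.13 did not pass the two-sided exact permutation test over all 4845 splits (p = 0.0892, adjusted over 3 tests 0.134), and 13 of 16 carcinomas lay above all normal glands and 1 below. Carcinomas 8, 11 and 16 were the 3 with values under 0, at -0.13, -0.15 and -0.10. Without them the difference was 0.19, which carries no test because they were set apart by their input. The arrays of day 2 alone gave 0.04 (exact permutation p = 0.786) and those of day 3 gave 0.21 (exact permutation p = 0.0444). Each gland was left out of its own reference mean, while the carcinomas were compared with all glands. The group labels are therefore not exchangeable, and the p-values of the enriched difference are approximate.

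The islands of the segment were mostly at the low end of the methylation scale. For linear position, the unlogged ratio of each array was scaled so that the density mode over all regions is 0 and the mode over the top 15% is 1. Each region was classed by its mean over all arrays as low (under 0.2), high (over 0.8) or between. The segment held 316 low regions (79.6%), 72 between (18.1%) and 9 high (2.27%). High regions made up 9.27% of regions on the other autosomes and 11.6% on the rest of chromosome 3.

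The mean log2 ratio over the 397 regions, with each array's median removed, was 0.19, 0.15, 0.11 and 0.10 in normal glands 1 to 4, and 0.31 in carcinoma 8, 0.23 in carcinoma 11 and 0.28 in carcinoma 16. In the other 13 carcinomas it ran from 0.05 through 0.14 to 0.21. The group means were 0.14 ± 0.04 (SD, n = 4) and 0.16 ± 0.08 (SD, n = 16), and the difference of 0.02 did not pass (two-sided exact permutation p = 0.689). It passed in linear position, where the segment mean was 0.07 in normal glands and 0.13 in carcinomas (difference 0.0659, exact permutation p = 0.00144), and after quantile normalization at 0.04 (exact permutation p = 0.0297). The sign of the log2 difference turned to -0.01 without carcinomas 8, 11 and 16, and it was 0.05 within scan day 2 and -0.01 within day 3.

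Relative to the other autosomes the segment's ratio averaged -0.34 ± 0.06 over the normal glands (SD, n = 4) and -0.17 ± 0.06 over the carcinomas (SD, n = 16). It was higher in 16 of 16 carcinomas, by 0.17, at the smallest p that the exact permutation test can give (p = 0.0002064, adjusted over 3 tests 0.000619). The ratio divides by the input from which the segment was chosen. The ratio tests of the segment, this one included, are therefore not independent of that choice. The difference is given below for parts of the data. Within scan day 2 the difference was 0.15 and within day 3 it was 0.22, each at the smallest p its number of arrays allows (exact permutation p = 0.0357 and 0.0222). The difference was 0.03 when only low regions were compared (exact permutation p = 0.314). Loess within each array left 0.03 (exact permutation p = 0.739). On the linear scale it was 0.00023 (exact permutation p = 0.934).

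Region by region, 81 of the 397 were higher in carcinomas (20.4%; 11.6% of all regions tested) and 61 lower (15.4%; 23.7% of all), by limma with Benjamini-Hochberg adjustment over all 13556 regions at an adjusted p under 0.05. The split depended on the scale: it was 73 higher and 13 lower in linear position (17.3% and 4.34% of all regions), 42 and 48 after quantile normalization (9.05% and 14.7%), and 25 and 52 with normexp background correction (3.47% and 21.5%). The count of higher regions also rested on single normal glands, at 36 without gland 1, 51 without gland 3 and 50 without gland 4 (6.57%, 7.2% and 8.43% of all regions). The ratio of each region divides by the input from which the segment was chosen. Without carcinomas 8, 11 and 16 the counts were 80 higher and 65 lower (14.6% and 24.1% of all regions). Within scan day 2 the counts were 24 higher and 30 lower (4.49% and 16.7% of all regions), within day 3 they were 13 and 41 (2.15% and 17.7%), and with the slide as a random block they were 90 and 63 (14% and 24.8%). The median difference was 0.13, against 0.02 over all regions. On both the log2 and the linear scale 28 regions were higher and 9 lower (3.67% and 1.98% of all regions), and 8 that were lower in log2 were higher in linear position (3.95% of all).

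The groups did not overlap in 9 regions with all carcinomas above all normal glands (1.76% of all 13556 regions) and in 32 with all below (15.6% of all). By class, 20.6% of the low regions were higher and 10.4% lower (65 and 33), against 13.3% and 11.5% of low regions over the whole array. Of the regions between, 22.2% were higher and 26.4% lower (16 and 19), against 10.9% and 35.0%. All 9 high regions were lower, with a median of -1.85, against 97.3% of high regions over the array. On the linear scale the same classes gave 24 higher and 9 lower, 45 and 1, and 4 and 3, with a median of 0.05 in the high class, so the direction of the high class depended on the scale. Of the low regions, 7.59% were higher and 2.85% lower on that scale, against 7.54% and 3.86% over the array. For the regions between it was 62.5% and 1.39%, against 52.1% and 1.79%. For the high regions it was 44.4% and 33.3%, against 23.9% and 13.3%.

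**Figure D3:**
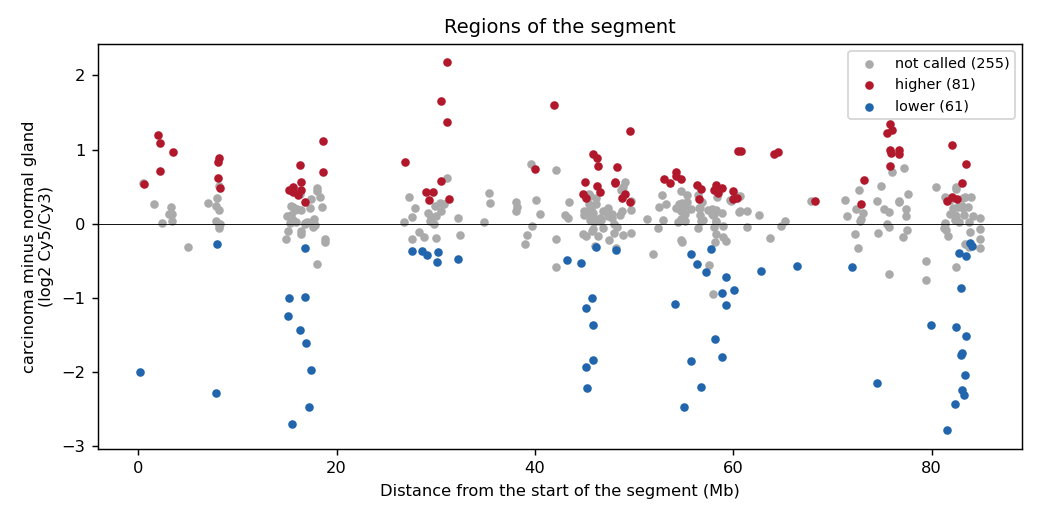
Difference in log2 Cy5 over Cy3 (carcinoma mean minus normal gland mean) for each of the 397 regions against its distance from the segment start in Mb, coloured by call. The 81 higher regions reach 2.18 and the 61 lower ones reach -2.79, and both kinds lie along the whole segment.

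Higher and lower regions were also counted by 1-Mb window. Of the 64 windows with a region, 33 held a higher one, 31 a lower one and 16 both. Whether 16 differs from the number that unrelated placement would give was not tested. Higher calls gathered at 135000001 to 136000000, with 5 of 10 regions higher and 0 lower, and in the next window with 3 of 6 and 0. The window from 91000001 to 92000000 held 3 higher of 4 regions and that from 62000001 to 63000000 also held 3 of 4. The window from 120000001 to 121000000 held 5 higher and 1 lower of 10. The most lower calls were 7 of 19 regions from 143000001 to 144000000, 6 of 22 from 105000001 to 106000000 and 5 of 17 from 142000001 to 143000000. These windows were picked for their counts, so they carry no test.

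The largest rise was at chr3:91133568-91134109, a region of 7 probes. Its log2 ratio was -0.55, -0.16, -0.11 and -1.70 in normal glands 1 to 4, and ran from 0.82 through 1.47 to 2.80 in carcinomas, the highest being carcinoma 8. The groups did not overlap, and the difference was 2.18 (SE 0.29, limma adjusted p = 1.95e-05). On the linear scale its mean went from -0.00 to 0.39, so it stayed below the middle of the scale in most carcinomas and passed 0.5 in 2 of 16.

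Its neighbour at chr3:91120465-91121492, with 11 probes, read 0.37, 0.35, 0.12 and -0.25 in the normal glands and from 0.60 through 1.50 to 2.98 in carcinomas (difference 1.37, SE 0.32, limma adjusted p = 0.00184). Between these regions lies chr3:91126235-91128478 with 17 probes, which read 1.31, 0.48, 0.80 and 0.27 in the normal glands and from 0.45 through 1.21 to 2.99 in carcinomas. There the groups overlapped, with 6 of 16 carcinomas above all normal glands, and the difference of 0.62 did not pass (limma adjusted p = 0.143), although it did in linear position (0.29, limma adjusted p = 0.038).

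The region at chr3:90527843-90528295, with 9 probes, read -0.50, 0.10, -0.21 and -0.94 in the normal glands and from 0.12 through 1.19 to 2.44 in carcinomas, all above the normal glands (difference 1.66, SE 0.29, limma adjusted p = 8.82e-05). The region at chr3:101913260-101913656, with 6 probes, read 0.14, 0.08, -0.11 and -0.75 against 0.67 through 1.31 to 2.65, again without overlap (1.60, SE 0.28, limma adjusted p = 8.39e-05). Both rose without reaching the level of the high class, at 0.32 and 0.37 on the linear scale in carcinomas.

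In the window from 135 Mb, chr3:135465591-135466591 with 12 probes read 1.57, 1.06, 0.88 and -0.48 in the normal glands and from 0.96 through 1.93 to 2.95 in carcinomas (1.22, SE 0.32, limma adjusted p = 0.00465). It lay over 0.5 on the linear scale in 11 of 16 carcinomas, the most among the 10 largest rises. The region at chr3:136006689-136007230 read -0.26, 0.14, -0.01 and -0.23 against 0.47 through 1.00 to 2.40, with no overlap (1.27, SE 0.26, limma adjusted p = 0.000497). At chr3:135839259-135839730 the normal glands read 0.08, -0.86, -1.02 and -1.68 and the carcinomas ran from -1.25 to 2.28, so that only 9 of 16 lay above all normal glands (1.34, SE 0.47, limma adjusted p = 0.0294).

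Single tumours differed in this stretch from the pattern that the carcinomas share, in both directions. With the shared pattern removed, the best single interval of enriched signal on chromosome 3 was 135729719 to 137404942 in carcinoma 6, at 0.89 above the rest, and 135729719 to 137162335 in carcinoma 12, at 1.03 above. In carcinomas 2, 9 and 10 the best interval overlapped the same stretch but lay below the rest, at -0.39 from 134844429 to 137150827, -0.39 from 135465780 to 139974781 and -0.36 from 135465780 to 137151009. Each of the 5 intervals took between 0.912% and 4.02% of the variance of its array. The removed pattern is the mean of other carcinomas, so a tumour that rose less than they did also reads below the rest. The negative steps therefore do not show a fall against the normal glands.

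The other rises among the 10 largest were chr3:109609649-109610074, chr3:62024867-62025185 and chr3:78648634-78649273, with differences of 1.25, 1.19 and 1.11. The first had 3 probes, 2 of them with enriched signal above background in any normal gland. It lay above all normal glands in 16 of 16 carcinomas, the second in 12 and the third in 14. In linear position the second did not pass (limma adjusted p = 0.101), nor did chr3:135839259-135839730 (limma adjusted p = 0.161). The second holds the leftmost probe of the common interval, and the groups overlapped there. In all of the 10 largest rises except chr3:109609649-109610074, the highest carcinoma value was that of carcinoma 8. The input of carcinoma 8, the denominator of the ratio, was low over these regions. The mean of its low run was -0.47. That of carcinoma 11 was -0.55, and carcinoma 11 was highest in none of these regions. Whether the low input raised the ratios of carcinoma 8 was not tested.

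The largest fall was at chr3:141545612-141545859, with 3 probes. The log2 ratio was 5.03, 3.11, 3.85 and 4.15 in normal glands 1 to 4 and ran from -0.23 through 1.41 to 2.76 in carcinomas, with no overlap (-2.79, SE 0.48, limma adjusted p = 7.77e-05). The fall was not past the threshold in linear position (0.64 to 0.35, limma adjusted p = 0.116), where the carcinomas spread widely.

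At chr3:75475088-75475297, with 4 probes, the normal glands read 4.00, 2.32, 2.36 and 3.39 and the carcinomas ran from -0.07 through 0.31 to 1.16 (-2.69, SE 0.24, limma adjusted p = 1.7e-07). The region at chr3:115044486-115045134, with 7 probes, read 3.67, 2.48, 2.54 and 3.36 against 0.11 through 0.48 to 1.32 (-2.48, SE 0.20, limma adjusted p = 8.04e-08). Both passed on the linear scale too, going from 0.31 to 0.10 and from 0.31 to 0.14, and the groups did not overlap in either.

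Most of the other large falls started from a higher level. At chr3:77249357-77249691 the normal glands read 6.84, 4.63, 5.51 and 5.10 and the carcinomas ran from 2.09 through 3.20 to 4.06 (-2.47, limma adjusted p = 1.95e-05). All 16 carcinomas were still over 0.5 on the linear scale there, and also at chr3:67868232-67868643, chr3:143037809-143038244 and chr3:116730214-116730709. The differences of these 3 were -2.29, -2.24 and -2.20. In linear position the fall at chr3:77249357-77249691 passed (-0.52, limma adjusted p = 0.000137). The falls of these 3 passed there too (limma adjusted p = 0.00276, 0.0102 and 0.0226). After loess the difference at chr3:77249357-77249691 was 0.10 and that at chr3:67868232-67868643 was 0.31, so their direction depended on the scaling. The remaining members of this list were chr3:142326170-142327389 at -2.44, chr3:143273317-143273682 at -2.31, which read 0.16 after loess, and chr3:105294490-105294901 at -2.21. None of these 3 passed in linear position (limma adjusted p = 0.244, 0.437 and 0.0822).

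**Figure D4:**
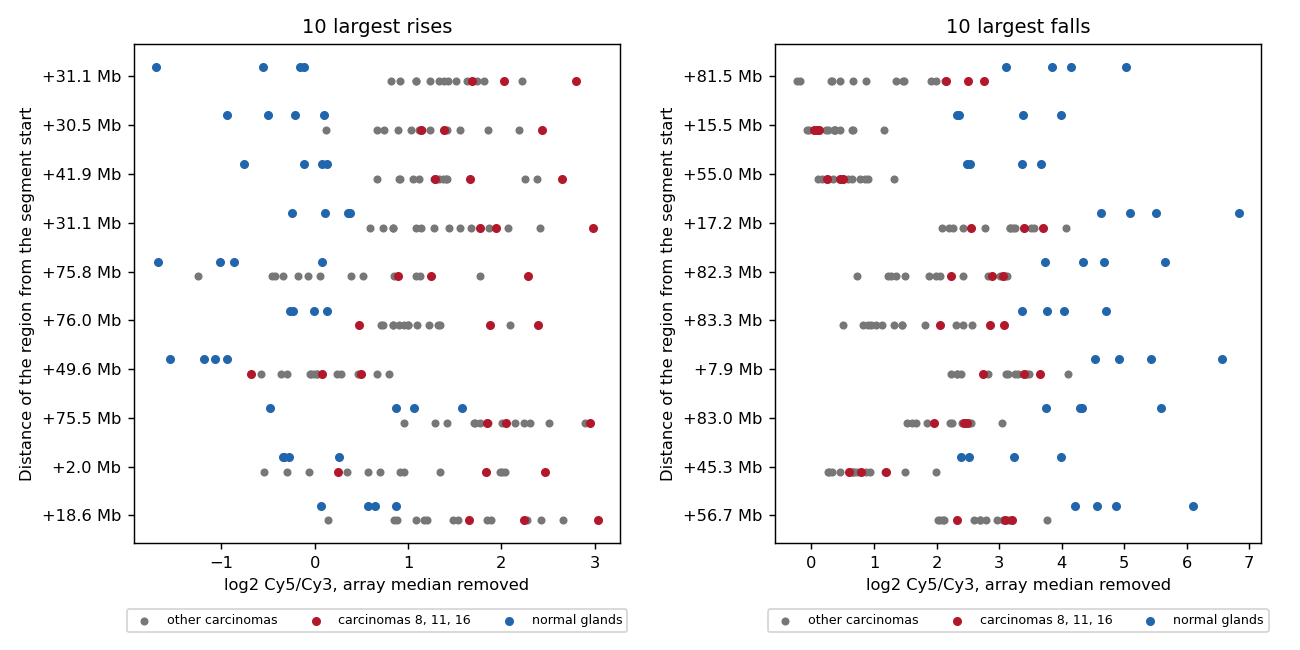
Log2 Cy5 over Cy3 on each array for the 10 regions with the largest rise (left) and the 10 with the largest fall (right), each given by its distance from the segment start in Mb. Blue points are the 4 normal glands, red points carcinomas 8, 11 and 16 and grey points the other carcinomas; for the falls every carcinoma lies below every normal gland.

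The 3 regions with the most probes did not pass on the log2 scale, and their differences ranged from 0.03 to 0.62, the last being that at chr3:91126235-91128478 described above. The one with 27 probes, chr3:125214319-125217489, read -0.72, -0.60, -0.80 and -0.71 in the normal glands and from -1.06 through -0.68 to -0.35 in carcinomas (0.03, SE 0.10, limma adjusted p = 0.832). The region at chr3:134844192-134847431, with 22 probes, read 0.31, 0.25, 0.29 and 0.10 against -0.01 through 0.65 to 2.05, and did not pass (0.51, SE 0.32, limma adjusted p = 0.232). Here carcinomas 8, 11 and 16 read 2.05, 1.14 and 1.90, and the other 13 ran from -0.01 to 1.70.

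In the 3 carcinomas with low input, the ratio within the common interval was set beside that of the same class on the other autosomes. For the 266 low regions the difference was 0.23 in carcinoma 8, 0.07 in carcinoma 11 and 0.04 in carcinoma 16. In the other 13 carcinomas it ran from -0.05 to 0.00 and in the normal glands from -0.04 to -0.01, so the 3 lay above all other arrays. The input by which these 3 were set apart is the denominator of the ratio, so this is no independent reading. For the 45 regions between, it was -0.09, -0.15 and -0.09 in carcinomas 8, 11 and 16, against -0.16 through -0.01 to 0.10 in the other 13. These carcinomas were set apart by their input, so no test was made between them and the rest.

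Region by region the ratio did not separate the 3 low-input carcinomas. All 3 lay above the other 13 in 2 of the 317 regions (0.631%), against 119 of 12021 (0.99%) on the other autosomes, and below them in 0, against 42. The share of the segment's regions over 0.5 on the linear scale was 4.28% to 5.29% in normal glands, 17.1% in carcinoma 8, 13.1% in carcinoma 11 and 12.1% in carcinoma 16. In the other 13 carcinomas it ran from 4.28% through 9.32% to 20.7%, the highest being carcinoma 15, so the 3 lay above the median of that range. They did so outside the segment too: on the other autosomes the share was 22.5%, 20.9% and 18.7% in carcinomas 8, 11 and 16, with a median of 15.8% in the other 13 and 10.4% to 11.5% in normal glands.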

How the data were processed

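Scanning used Agilent Feature Extraction 10.7.3.1, with probe positions on rn4, per the file headers. The deposited processed signals are intensities, background-subtracted and dye-normalized by a linear factor, with no lowess. Cy5 was the enriched and Cy3 the input DNA on all arrays, per the labels. The authors' value table holds 91897 probes as log2 ratios, not centred, with column medians from -0.48 to -0.08, equal within 7.94e-07 to the scanner's deposited log10 ratio rescaled; it served as an alternative.

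Here 1565 control spots were left out, 187 values marked as outliers were set to missing, 91599 probes (2696 in the segment) passed the filter of input signal well above background on 10 or more arrays, and each array's median was removed without loess or quantile steps. limma 3.58.1 (R 4.3.3) tested regions, and single values per array were compared with exact permutation tests. The removal of the shared pattern used a slope on the mean of the other carcinomas, fitted on autosomes outside chromosome 3. Named regions were the 10 largest rises and the 10 largest falls past the threshold and the 3 with the most probes. The members and lists were chosen with earlier results of these data known. The run finder and the region test were tested on simulated data. Alternatives covered scaling, background, filters, region rules, blocks, scan days and leaving out arrays. Sequences and gene names are not reported here. The number of arrays limits the precision. Further steps ran in Python 3.11.15 with scipy 1.17.1, pandas 2.3.3 and numpy 2.4.6.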

Additional observations from a re-analysis of the deposited data

Results flagged for a closer look

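At chr3:62024867-62025185, normal gland 2 read 0.26 in log2 ratio while the other normal glands ran from -0.34 to -0.27, so that its gap to the nearest was 0.885 of the whole range of the 4 glands. Of 28 sets of values examined in this way it was the only one set apart, and chance alone sets apart about 5% of such sets.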

How the results depend on the processing

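The count of higher regions (81) was 41 after loess (10.3% of the segment, 9.5% of all regions). It was 42 after quantile normalization (10.6% and 9.05%) and 25 with normexp (6.3% and 3.47%). With the replicate number as a block it was 38 (9.57% and 7.89%), and it was 30 at an adjusted p under 0.01. It ran from 36 to 67 with 1 normal gland left out. The count of lower regions (61) was 24 after loess (6.05% of the segment, 9.99% of all regions) and 13 in linear position (3.27% and 4.34%). It was 39 with at least 5 probes per region (13.8% and 23.8%). The segment's mean ratio difference (0.02) was 0.0447 after quantile normalization (exact permutation p = 0.0297) and 0.0659 on the linear scale (exact permutation p = 0.00144), and turned to -0.0541 with normexp, -0.0100 without carcinomas 8, 11 and 16, -0.00777 within day 3 and -0.0451 with the replicate block. The segment minus the other autosomes (0.17) missed the threshold at 0.0299 after loess, 0.0356 after quantile normalization (exact permutation p = 0.0939), 0.00023 in linear position, 0.0339 in low regions and 0.11 with the block, where the smallest possible p is 0.125. The enriched difference (0.13) was 0.19 without carcinomas 8, 11 and 16, and passed at 0.14 without carcinomas 7 and 8 (exact permutation p = 0.0484) and 0.21 within day 3 (exact permutation p = 0.0444). The p-values of the enriched difference are approximate, as stated above. The low run of carcinoma 16 was 16 Mb at a limit of -0.35. After loess, chr3:77249357-77249691 read 0.10, chr3:143273317-143273682 read 0.16 and chr3:67868232-67868643 read 0.31. The cause was not tested in any of these. The deviations of same-numbered samples correlated at 0.34, -0.29, 0.10 and -0.04. Samples of unlike number were not compared in this way, so these values cannot decide whether the numbers pair samples. The pattern removal, change points, low-region and common-interval comparisons were chosen after seeing the data. Enriched signal near background limits the dimmest regions.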
